A study of Rattus norvegicus with 12 samples.

Results

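TRL1215 is an epithelial cell line from rat liver, and its 12 arrays were read as an ordered series of 4 groups of 3 arrays each. In that order, passage-matched control cells received no added compound, and the groups T10, T50 and T100 grew with the fluorinated surfactant perfluorooctanoic acid (PFOA) at 10, 50 and 100 µM for up to 38 weeks. All groups, control included, are 1 line grown in William's E medium with 10% serum and passaged weekly. The sources used here do not give the week of sampling, nor whether the 3 samples of a group came from separate cultures. The p-values therefore cover the spread between these samples alone, which may be technical. All 12 of the 12 arrays in the series entered the comparison. It asks which of 22093 genes followed the dose in order and which differed among the groups in some other order. Each gene was tested with a linear contrast of the group means (weights -3, -1, 1 and 3) fitted with limma, and its slope is the log2 change per dose step. Means were called ordered when they moved in the same direction at each of the 3 steps.

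The line was set against markers of liver cell types. Defining markers of hepatocytes (7 measured), bile duct and progenitor cells (6), stellate cells and fibroblasts (9), endothelium (6) and leukocytes (7) were all below background, and 0 were called for the trend. The longer marker lists held some expressed genes. Of 22 stellate cell and fibroblast markers 5 were above background (Acta2, Col1a1, Col1a2, Col3a1 and Vim), with a median slope of 0.53. That median is the slope of Col3a1, which was not called (adjusted p = 0.0792). Over all 22 the median slope was -0.004, and 13 had a negative slope. Acta2 and Col1a1 were called higher with dose, though not in order, against 1.65% of all genes called higher. Of 14 biliary and progenitor markers 2 were above background. Gpc3 was called higher, while Cftr had a negative slope that was not called (-0.25, adjusted p = 0.0648). The hepatocyte (32), endothelial (19) and leukocyte (22) lists each had 1 member above background (Arg1, Tek and Cd14) and 0 trend calls. The part of such cells in the results was not tested. Vim, the intermediate filament of mesenchymal and cultured epithelial cells, stood at the ceiling of the scale on all 12 arrays (19.93). The background level of a group was the 95th percentile over negative-control probe sets, and 4581 genes had a mean above it in 1 group or more.

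PFOA resembles a fatty acid and is known in rodent liver as a ligand of PPAR alpha, the nuclear receptor that switches on fatty acid oxidation. A culture held for months at a fixed concentration is also a separate lineage of cells, which can drift or be selected. A graded response over several lineages and a difference of 1 lineage from the others are therefore distinct patterns in such a design. Each dose is represented by 1 group here, so dose and the history of that culture cannot be told apart.

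The trend was called for 490 genes at an adjusted p under 0.05, which is 2.22% of all genes. Of these, 365 rose (1.65% of all genes) and 125 fell (0.566%). Only 131 of the 490 (26.7%) also had their 4 means in the order of dose, which is 0.593% of all genes: 101 rose at every step (0.457%) and 30 fell at every step (0.136%). This balance turned with the scaling, to 125 rising and 81 falling after quantile normalization and 87 and 113 after centring. With the 95th percentile of the array as a covariate 32 ordered calls were left, 7 rising and 25 falling, and 10 of them were among the 131. For comparison, 7.94% of all genes had ordered means when no test was asked. The share of rising genes among the called ones depended on the scaling of the arrays, with 74.5% in the deposited values, 51.6% after quantile normalization 45.9% after each array was centred on the median of genes above background and 31.2% of the 109 calls left with the 95th percentile of the array as a covariate. The levels of genes above background had shifted as a whole: their median over control, T10, T50 and T100 was 7.01, 6.88, 7.02 and 7.05. In the deposited values 71.8% of these genes had a positive slope, with a median of 0.03 per step. Ordered means and a called trend were found under all 3 scalings for 35 genes, 22 rising and 13 falling, and 26 of them (19 and 7) were above background. Without 1 array the 490 calls became 167 to 482, with the lowest number without control replicate 2, and 225, 247, 257 and 268 without control replicates 1 and 3 and T100 replicates 1 and 3. The 131 ordered calls became 51 without control replicate 2, and 68, 78, 86, 70 and 80 without control replicates 1 and 3, T10 replicate 3, and T100 replicates 1 and 3.

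The steepest ordered rise was that of Itgb8, the integrin beta subunit that pairs with alpha V and is known to activate latent TGF-beta. Its log2 levels were 5.23, 5.80 and 5.48 in control, 5.22, 5.84 and 5.93 in T10, 5.54, 6.08 and 6.65 in T50, and 8.05, 7.18 and 7.33 in T100. The arrays of control, T10 and T50 overlapped and the 3 T100 arrays lay above all others, so most of the slope (0.65 ± 0.10 per step, adjusted p = 0.0145) came from the last step. Col12a1, a collagen that sits on the surface of larger collagen fibrils, had 7.05, 7.36 and 7.24 in control, 7.34, 8.48 and 7.85 in T10, 8.32, 8.10 and 8.79 in T50, and 9.0, 8.65 and 9.09 in T100. Its steps were of like size (0.67, 0.51 and 0.51), each group overlapped its neighbour, control lay below T50 and T10 below T100, and the slope was 0.56 ± 0.09 (adjusted p = 0.0130). Frmd4b, a scaffold protein with a FERM domain, had 6.69, 6.82 and 7.08 in control, 7.20, 7.53 and 7.53 in T10, 7.74, 8.24 and 8.07 in T50, and 8.31, 8.11 and 8.90 in T100. Each group lay above the one before it except for an overlap of T50 and T100, and the slope was 0.53 ± 0.07 (adjusted p = 0.00656). Against control, T100 levels were 4.04-fold for Itgb8, 3.23-fold for Col12a1 and 2.98-fold for Frmd4b. The call of Itgb8 ended without control replicate 1 (adjusted p = 0.0524), while those of Col12a1 and Frmd4b held without any single array. All 3 calls ended with the 95th percentile of the array as a covariate (adjusted p = 0.145, 0.162 and 0.071).

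Only Tspan6, a tetraspanin of the cell membrane, had all 12 arrays separated at every step in the rising direction, which is 0.00453% of all genes. Its levels were 8.0, 8.0 and 8.15 in control, 8.33, 8.44 and 8.32 in T10, 8.48, 8.70 and 8.73 in T50, and 8.87, 8.99 and 8.73 in T100. The highest T50 array and the lowest T100 array agree at 2 decimals, and the rise was small and even (0.27 ± 0.03 per step, adjusted p = 0.00224). Net1, an exchange factor that activates the small GTPase RhoA, had group means of 8.0, 8.11, 8.43 and 8.92 (slope 0.31, adjusted p = 0.00994). Cd200r1, an inhibitory receptor for the membrane protein CD200, stayed level at T10 and was higher at T50 and T100, with means of 9.40, 9.44, 9.86 and 10.20 (slope 0.28, adjusted p = 0.0107). A row annotated to Paics-ps6, a pseudogene of the purine synthesis enzyme Paics, rose by 0.26 per step (adjusted p = 0.00321), and a probe for it may also read Paics itself. Eif2s3y, the Y-linked copy of a translation initiation subunit, was ordered by its means, yet its values in control, T10 and T50 all lay between 9.01 and 9.37 and those of T100 between 9.92 and 10.46. It was not among the 35 genes ordered under all 3 scalings. Among the other ordered and called genes described here, the same held for Inpp5f, Adam10, Slc2a1, Ucp2, Fbn1, Prim1, Acaa2, Decr1, Elovl5, Slc3a2 and Egln1. Their order and calls refer to the deposited values. Inpp5f, a phosphoinositide phosphatase, rose (slope 0.36, adjusted p = 0.0130) with ordered means in the deposited values, and its call ended without control replicate 2 (adjusted p = 0.0541).

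**Figure D1:**
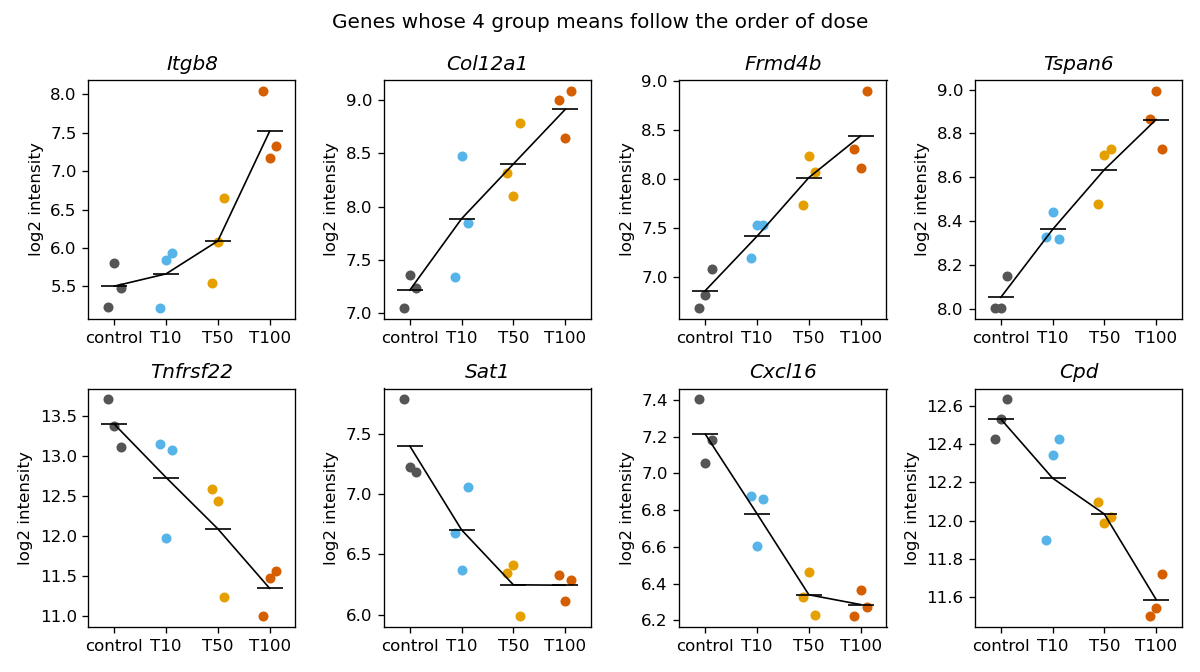
Log2 intensity (vertical axis) of 8 genes with ordered means in control, T10, T50 and T100 (horizontal axis). Points are the 3 arrays of a group and bars joined by a line are group means. Frmd4b and Tspan6 climbed in even steps, Itgb8 mainly at T100, and Sat1 and Cxcl16 reached their low level by T50.

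Tnfrsf22, known in mouse as a receptor that binds the death ligand TRAIL without a death domain, had the steepest ordered fall. Its levels were 13.71, 13.38 and 13.11 in control, 13.15, 11.98 and 13.07 in T10, 12.59, 12.44 and 11.24 in T50, and 11, 11.48 and 11.57 in T100. Single arrays of T10 and T50 reached down into the range of the next dose, T100 lay below all control and T10 arrays, and the slope was -0.68 ± 0.13 (adjusted p = 0.0280). The T100 level was 0.241 of the control level. This call ended in 6 fits that left out 1 array (any control or any T100 replicate), with an adjusted p of up to 0.0911 without control replicate 1.

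Sat1, the enzyme that acetylates spermidine and spermine for export or breakdown, had 7.79, 7.23 and 7.18 in control, 6.68, 6.37 and 7.06 in T10, 6.35, 6.41 and 5.98 in T50, and 6.33, 6.11 and 6.29 in T100. The decline was complete at T50, and T50 and T100 overlapped fully (slope -0.39 ± 0.06, adjusted p = 0.0168). Cxcl16, a membrane-bound chemokine, had 7.40, 7.06 and 7.18 in control, 6.88, 6.60 and 6.86 in T10, 6.33, 6.46 and 6.23 in T50, and 6.22, 6.37 and 6.27 in T100. Control, T10 and T50 were separated from each other and T50 was not separated from T100 (slope -0.32 ± 0.03, adjusted p = 0.00251). Adam10, the membrane protease known to cut the CXCL16 ectodomain from the cell surface, fell later, with means of 12.32, 12.26, 12.02 and 11.60 (slope -0.24, adjusted p = 0.0168). Cpd, a carboxypeptidase of the trans-Golgi network, had 12.43, 12.53 and 12.63 in control, 11.90, 12.34 and 12.43 in T10, 12.10, 11.99 and 12.02 in T50, and 11.50, 11.54 and 11.72 in T100. T100 lay below all other arrays, and control met T10 at 12.43 (slope -0.30 ± 0.04, adjusted p = 0.00802).

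Several other named genes fell in order. Ctsd, the aspartic protease cathepsin D, had means of 10.97, 10.58, 10.30 and 10.24 (slope -0.25, adjusted p = 0.0196). F11r, the tight-junction adhesion molecule JAM-A, had 8.08, 7.74, 7.72 and 7.41 (slope -0.20, adjusted p = 0.0102). Jmjd8, a JmjC-domain protein, was above background only in control (5.82, 5.64, 5.50 and 5.04, slope -0.25, adjusted p = 0.00248). Slc2a1, the glucose transporter GLUT1, fell mainly at T100 (11.64, 11.57, 11.37 and 10.97, slope -0.22, adjusted p = 0.0394). Ucp2, a mitochondrial inner membrane carrier, fell in the deposited values (14.98, 14.62, 14.52 and 14.47, slope -0.17, adjusted p = 0.00854) but had a slope of -0.08 and an adjusted p of 0.587 after quantile normalization. Among the 12 ordered risers and 12 ordered fallers named by slope, 7 and 6 were called in every fit that left out 1 array. The calls of Ctsd, Adam10 and Slc2a1 each ended without any 1 control, at adjusted p of up to 0.0679 (without control replicate 1), 0.0651 (control replicate 2) and 0.114 (control replicate 1). That of Ctsd also ended without T100 replicate 2 or 3, that of Adam10 without T100 replicate 1, and that of Slc2a1 without any 1 T10 array, T50 replicate 2, or T100 replicate 1 or 3.

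Promoter sequences are shown for the steepest ordered risers and fallers that had an entry, so that their composition can be seen beside the values; Col12a1 had none. Each is the 250 bases upstream of the annotated start in RefSeq on GRCr8, read 5′ to 3′ on the gene's strand, with matches to any of 4 short motifs in capitals. The motif of the TATA box was searched for as TATAAA and that of the GC box, which the factor Sp1 is known to bind, as GGGCGG. The element of the AP-1 factors was searched for as TGACTCA, and the element shared by C/EBP and ATF factors was searched for as TGATGNAA. Both strands were read and matches may overlap. Itgb8 lies at chr6:146351246-146351495 (minus strand), Frmd4b at chr4:131640182-131640431 (minus), Tnfrsf22 at chr1:208285824-208286073 (minus) and Sat1 at chrX:44007839-44008088 (plus).
Itgb8: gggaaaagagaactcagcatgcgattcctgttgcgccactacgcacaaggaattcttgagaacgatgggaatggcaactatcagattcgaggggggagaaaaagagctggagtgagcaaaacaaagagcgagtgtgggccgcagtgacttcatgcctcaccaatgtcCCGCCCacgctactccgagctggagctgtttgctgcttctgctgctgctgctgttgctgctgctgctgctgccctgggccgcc
Frmd4b: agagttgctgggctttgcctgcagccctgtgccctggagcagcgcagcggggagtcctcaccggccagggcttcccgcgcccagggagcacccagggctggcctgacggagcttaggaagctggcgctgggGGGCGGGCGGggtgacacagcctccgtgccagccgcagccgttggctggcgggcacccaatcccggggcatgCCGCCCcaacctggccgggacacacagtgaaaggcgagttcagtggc
Tnfrsf22: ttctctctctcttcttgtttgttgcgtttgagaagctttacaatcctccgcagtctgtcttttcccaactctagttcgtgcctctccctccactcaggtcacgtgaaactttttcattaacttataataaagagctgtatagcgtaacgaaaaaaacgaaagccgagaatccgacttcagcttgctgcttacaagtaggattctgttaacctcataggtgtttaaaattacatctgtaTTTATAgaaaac
Sat1: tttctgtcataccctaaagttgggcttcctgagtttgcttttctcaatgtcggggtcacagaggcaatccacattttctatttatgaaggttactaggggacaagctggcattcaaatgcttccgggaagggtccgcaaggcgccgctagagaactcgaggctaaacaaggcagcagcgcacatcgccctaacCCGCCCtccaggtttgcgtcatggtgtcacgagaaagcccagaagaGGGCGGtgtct
The GC box occurred in Itgb8, Frmd4b and Sat1, and a TATA box match in Tnfrsf22. The matches in Itgb8 and Tnfrsf22 were on the opposite strand, as were the CCGCCC matches in Frmd4b and Sat1. The window of Cxcl16, the next steepest ordered faller above background, is not shown and held no match. Of 27457 upstream windows of the same length, 32.4% held GGGCGG, 13.1% TATAAA, 3.98% TGACTCA and 3.27% TGATGNAA. Among the ordered risers, 76 of 101 had a window, and 51.3% of these held GGGCGG, 15.8% TATAAA, 1.32% TGACTCA and 3.95% TGATGNAA. Among the ordered fallers 25 of 30 had a window, with 56% for GGGCGG, 4% for TATAAA, 8% for TGACTCA and 4% for TGATGNAA. Both directions thus had GGGCGG more often than all windows, a reference not limited to genes on the array or above background. No test was made, and a match is a description of the letters only.

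Mir3084c, a microRNA gene above background in 2 groups, also had ordered means, with levels of 5.43, 4.69 and 5.26 in control, 5.55, 5.08 and 5.50 in T10, 5.62, 5.88 and 5.74 in T50, and 6.24, 7.36 and 6.29 in T100. Control and T10 overlapped and T100 lay above the rest (slope 0.49 ± 0.09, adjusted p = 0.0315). Its call ended without any 1 control, T10 replicate 3, T50 replicate 2 or T50 replicate 3, at an adjusted p of up to 0.102 without control replicate 2. The array row does not tell the arms apart, and both mature RefSeq sequences (GRCr8) are given with the seed, bases 2 to 8, in capitals.
rno-miR-3084c-5p: gUUGAAGGuuaauuagcagag
rno-miR-3084c-3p: cUGCCAGUucccuucagacaa
The seeds of the arms differ.

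The largest step was compared within each ordered gene, without a test of the difference between directions. Of the 101 ordered risers, the largest step was the one from T50 to T100 in 61, from T10 to T50 in 30 and from control to T10 in 10. Of the 30 ordered fallers it was the first step in 12, the second in 8 and the third in 10. At least 1 single step between neighbouring doses was called in 15 of 101 risers and 2 of 30 fallers, and T100 against control in 73 and 20. These genes were chosen by the same group means, so the counts are a description. They were made in the deposited values alone. There the genes above background moved by medians of -0.086, 0.101 and 0.037 over the 3 steps, a shift not removed from the counts. Only 22 of the 101 risers and 13 of the 30 fallers stayed ordered and called under all 3 scalings. Over all genes the calls were 0.869% (T10 minus control), 2.01% (T50 minus T10), 1.16% (T100 minus T50) and 1.46% (T100 minus control). The changes were small, with a median T100 minus control difference of 0.42 for risers and -0.38 for fallers on the log2 scale, and 9 risers and 3 fallers differed at least 2-fold.

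For the gene lists that follow, trend calls over all 22093 genes were 365 rising (1.65%) and 125 falling (0.566%) in the deposited values. They were 274 and 257 after quantile normalization, and 279 and 329 after centring. No list was tested as a set. Some extracellular matrix genes rose, in different orders. Of 21 elastic fibre genes measured, 4 rose and 0 fell under each of the 3 scalings, though not the same 4. The deposited median slope was 0.13 over the 9 above background, against 0.03 for all genes above background. Fbn1, the microfibril protein fibrillin-1, had ordered means of 6.13, 6.29, 6.34 and 7.04 (slope 0.28, adjusted p = 0.0320). Ltbp4, which anchors latent TGF-beta to microfibrils, had 5.89, 6.02, 6.39 and 6.59 (slope 0.25, adjusted p = 0.0255). Ltbp2 was called at a level below background, and its call ended without any 1 of the 12 arrays (adjusted p up to 0.129 without control replicate 3). The call of Ltbp2 also ended after quantile normalization (adjusted p = 0.0799) and after centring (0.75), while those of Fbn1, Ltbp4 and Eln held under both. Eln, elastin itself, had the steepest slope of the list (1.05 ± 0.16, adjusted p = 0.0130) without being ordered: 9.0, 8.92 and 9.18 in control, 10.69, 12.34 and 11.33 in T10, 9.85, 10.47 and 10.54 in T50, and 12.58, 12.12 and 14.04 in T100. T10 lay above T50, and the T100 level was 14.7-fold that of control. The call of Eln ended without control replicate 2 (adjusted p = 0.0519), that of Ltbp4 without any 1 control or T100 replicate 1 (up to 0.0852 without control replicate 1), and that of Fbn1 without any 1 control, T10 replicate 3, T50 replicate 3, or T100 replicate 1 or 3 (up to 0.0953 without T100 replicate 3).

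Of 27 fibrillar and associated collagens, 2 rose and 1 fell in the deposited values (4 and 1 after quantile normalization, 6 and 1 after centring), and 13 of 15 above background had a positive slope. Col12a1 was the ordered one. Col1a1, the alpha 1 chain of type I collagen, had 7.02, 7.20 and 7.36 in control, 7.25, 8.12 and 7.47 in T10, 6.53, 6.51 and 6.85 in T50, and 9.56, 8.97 and 10.14 in T100. T50 was the lowest group and T100 the highest without overlap (slope 0.61 ± 0.09, adjusted p = 0.0126). Col8a1, a short-chain collagen, fell with T10 lowest (8.66, 6.75, 7.93 and 7.23, slope -0.31, adjusted p = 0.0155). The basement membrane list moved the other way, with 4 called lower and 1 higher among 18 (5 and 1 under each other scaling), and none of them ordered in the deposited values. Bcam, a laminin receptor, had 10.27, 10.65 and 10.27 in control, 8.77, 9.42 and 9.26 in T10, 8.95, 8.83 and 8.82 in T50, and 9.43, 9.21 and 9.43 in T100. All exposed arrays lay below control and T100 was above T50 (slope -0.34, adjusted p = 0.0123). Lamb3, a chain of laminin 332, showed the same plateau (8.42, 7.59, 7.64 and 7.59, slope -0.24, adjusted p = 0.0130). The riser Lama2, the laminin alpha 2 chain, was high at T50 alone (3.79, 3.92, 5.78 and 4.17). The call of Col8a1 ended without control replicate 1 or 3 (adjusted p up to 0.0550) and that of Lamb3 without control replicate 2 (0.0504).

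Lysosomal genes leaned downward in dose order. Of 27 measured, 3 fell and 1 rose, and 5 had means falling at every step while 0 had means rising at every step, against 3.71% and 4.23% of all genes. Under quantile normalization 6 fell, 1 rose and 10 had falling means; after centring these counts were 7, 1 and 10. The median slope above background was -0.07 (-0.11 and -0.10 under the other scalings). Besides Ctsd, Npc2, which moves cholesterol out of the lysosome, had 8.54, 8.19, 8.27 and 7.88 (slope -0.19, adjusted p = 0.0158), and Lgmn, the asparaginyl protease legumain, had 6.93, 6.26, 6.35 and 6.35 (slope -0.16, adjusted p = 0.0115). Lamp1, the main lysosomal membrane glycoprotein, and Ctsa, the protective protein of lysosomal sialidase, had falling means that did not pass (slopes -0.15 and -0.11, adjusted p = 0.0854 and 0.0618). Both were chosen after their values were seen, as were Atf4 and Egln1 among the lists that follow. Ctsz, the carboxypeptidase cathepsin Z, rose, with 8.80, 8.34 and 8.68 in control, 8.47, 8.14 and 8.12 in T10, 9.59, 9.98 and 9.61 in T50, and 9.30, 9.35 and 9.30 in T100. It was highest at T50 (slope 0.36, adjusted p = 0.00692). The call of Npc2 ended without control replicate 1 or 2 or T100 replicate 3 (adjusted p up to 0.0544).

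Genes of serine synthesis and the integrated stress response, the programme driven by ATF4, leaned upward. Of 23 measured, 3 rose and 0 fell in the deposited values (3 and 0 after quantile normalization, 5 and 0 after centring), and all 7 above background had a positive slope under each scaling, with a deposited median of 0.13. Mthfd2, a mitochondrial folate enzyme, was ordered but below background (5.11, 5.23, 5.52 and 5.63, slope 0.19, adjusted p = 0.0350). Psat1, the aminotransferase of serine synthesis, had 12.66, 12.42 and 12.71 in control, 12.25, 13.02 and 12.39 in T10, 12.24, 12.97 and 12.88 in T50, and 13.67, 13.96 and 14.61 in T100. Its first 3 groups overlapped and T100 lay above them (slope 0.46, adjusted p = 0.0326). Slc3a2, the heavy chain of amino acid transporters, moved by 0.09 per step (adjusted p = 0.0481) and was not called after quantile normalization (0.239). Atf4 itself did not pass (slope 0.22, adjusted p = 0.0525). The calls of Psat1, Mthfd2 and Slc3a2 ended in 8, 8 and 10 of the 12 fits without 1 array, those without any 1 control among them, with adjusted p-values of up to 0.109, 0.116 and 0.152 without control replicate 2. They held only without T10 replicates 1 and 2, T50 replicate 1 or T100 replicate 1 (Psat1), T10 replicates 2 and 3 or T50 replicates 1 and 3 (Mthfd2), and T100 replicates 2 and 3 (Slc3a2).

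The coagulation and plasminogen list held 3 rising and 0 falling genes of 15 under each scaling. Over all genes the deposited shares were 1.65% rising and 0.566% falling. Serpinb8, an intracellular inhibitor of serine proteases, was ordered, with means of 9.03, 9.41, 9.74 and 10.15 (slope 0.37, adjusted p = 0.0291). F3, tissue factor, the initiator of clotting, had 8.01, 8.30 and 8.54 in control, 8.38, 8.88 and 8.42 in T10, 7.68, 8.23 and 8.24 in T50, and 10.50, 9.83 and 9.76 in T100, so that only T100 stood apart (slope 0.47, adjusted p = 0.0155). Tfpi, its inhibitor, had 5.96, 5.86, 6.07 and 6.38 (slope 0.15, adjusted p = 0.0130). These 3 calls ended without control replicate 2, at adjusted p-values of 0.102, 0.0565 and 0.0541, and those of Serpinb8 and F3 also without control replicate 1, that of Serpinb8 also without control replicate 3, T10 replicate 3 or T100 replicate 1.

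Several inflammatory genes fell, most of them out of order, as did most called fallers among all genes (24.0% ordered in the deposited values). Of 36 cytokines and NF-kB targets 5 fell and 0 rose in the deposited values, 0 of them ordered. Under each other scaling 6 fell and 0 rose, and 2 of the 6 were ordered. Over all genes 38.8% of trend calls were ordered after quantile normalization and 32.9% after centring. The 2 were Nfkb1, an NF-kB subunit, and Tnip1, a restraint on NF-kB signalling that was below background in every group. Both were named after their values were seen. The F test for any difference among the 4 groups called 10 of the 36, against 3.80% of all genes. Of these 10, 0 were ordered, beside 8.8% of all F-test calls. With so few calls this does not set the list apart. Il1rn, the interleukin-1 receptor antagonist, had 7.23, 6.93 and 7.93 in control, 5.13, 5.43 and 5.37 in T10, 5.39, 5.74 and 5.78 in T50, and 5.85, 5.91 and 6.07 in T100. All 9 exposed arrays lay below control, and the exposed means climbed with dose (slope -0.39, adjusted p = 0.0214). Csf1, the macrophage growth factor, had 6.74, 6.06, 5.76 and 5.95 (slope -0.27, adjusted p = 0.0249), and Nfkbiz, an inducible NF-kB cofactor, had 6.67, 5.75, 6.31 and 6.06 (slope -0.13, adjusted p = 0.0152). Of 24 chemokines and receptors 2 fell under each scaling, Cxcl16 in order and Ccl7 out of order. Ccl7, which attracts monocytes, had 12.13, 11.99 and 11.82 in control, 9.21, 9.04 and 9.68 in T10, 10.64, 10.84 and 10.59 in T50, and 8.69, 9.09 and 8.72 in T100. T50 stood between control and the other doses (slope -0.81 ± 0.05, adjusted p = 0.000468), and the T100 level was 0.113 of control. The call of Il1rn ended without control replicate 1 or any 1 T100 array (adjusted p up to 0.0700 without T100 replicate 1), and that of Csf1 without control replicate 1 or 2 or any 1 T100 array (up to 0.0910 without control replicate 2).

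Oxygen, glucose and redox genes were mixed. Of 22 hypoxia targets 4 fell and 1 rose (4 and 3 after quantile normalization, 5 and 1 after centring). Ndrg1, a stress-responsive gene, was lower at T100 alone (8.26, 8.33, 8.14 and 7.23, slope -0.33, adjusted p = 0.00947), and Car9, a membrane carbonic anhydrase, rose in alternation (11.87, 13.20, 11.95 and 14.12, slope 0.55, adjusted p = 0.0210). Egln1, the oxygen-sensing prolyl hydroxylase PHD2, was the ordered faller of the list in the deposited values (slope -0.07, adjusted p = 0.0465). Under each other scaling 0 members were called with ordered falling means. Of 24 glycolysis genes 2 fell in the deposited values, Slc2a1 and the liver phosphofructokinase Pfkl (8.52, 8.64, 7.78 and 7.93, slope -0.26, adjusted p = 0.0201). Of 30 NRF2 and glutathione genes 3 rose and 0 fell (3 and 2 after quantile normalization, 2 and 1 after centring). Gclc, which makes the first bond of glutathione, had 9.32, 9.20 and 9.24 in control, 9.94, 9.96 and 9.90 in T10, 9.87, 9.90 and 9.80 in T50, and 10.62, 10.33 and 10.80 in T100. Its T10 and T50 arrays formed a plateau between control and T100, which left the means just out of order (slope 0.39 ± 0.03, adjusted p = 0.000619). The call of Car9 ended without control replicate 1 or 2 (adjusted p up to 0.0779), and that of Pfkl without control replicate 1 or 3 or T100 replicate 1 or 2 (up to 0.0668).

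Calls among PPAR targets and fatty acid oxidation genes depended on the scaling. Of 41 measured, 9 were above background, 2 rose and 1 (Ucp2, described above) fell in the deposited values (trend calls were 2.22% of all genes), 0 were called after quantile normalization, and 1 rose and 1 fell after centring. Their median slope above background was 0.03 deposited, -0.01 after quantile normalization and 0.00 after centring. Acaa2, the thiolase of mitochondrial beta-oxidation, had ordered means of 6.27, 6.34, 6.44 and 6.61 (slope 0.11, adjusted p = 0.0315) and an adjusted p of 0.286 after quantile normalization. Decr1, a dienoyl-CoA reductase, was below background (slope 0.11, adjusted p = 0.0401, and 0.0725 after quantile normalization). Cpt1a, the gate of mitochondrial fatty acid import, did not pass (slope 0.11, adjusted p = 0.462), and Pdk4, a common PPAR target, stayed below background in every group (slope -0.01, adjusted p = 0.758). Of 18 fatty acid synthesis genes 2 rose and 0 fell as deposited, and 1 rose and 0 fell under each other scaling. Called risers in order numbered 1 as deposited and 0 under each other scaling. Single lipid enzymes outside the PPAR list had ordered rises as deposited. Acsl3, which activates long-chain fatty acids, had 7.58, 7.78, 8.03 and 8.24 (slope 0.22, adjusted p = 0.0270) and was singled out after its values were seen. Elovl5 lengthens polyunsaturated fatty acids (slope 0.18, adjusted p = 0.0236). The calls of Decr1, Acaa2 and Elovl5 ended in 9, 6 and 5 of the fits without 1 array, at adjusted p-values of up to 0.114, 0.105 and 0.0787 without control replicate 2.

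**Figure D2:**
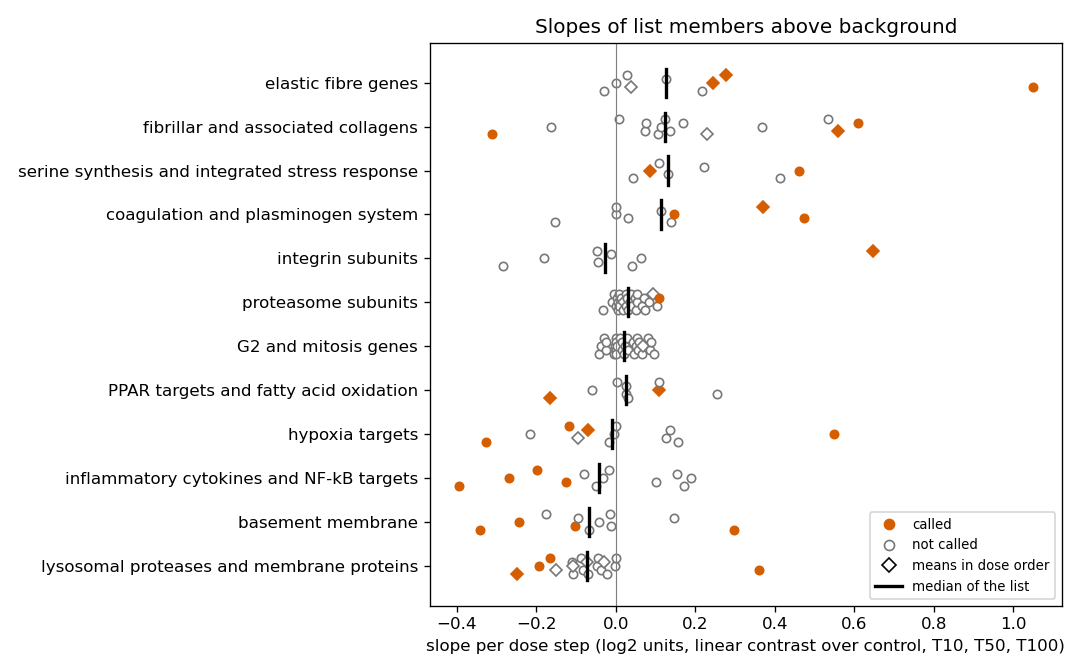
Slope per dose step in log2 units (horizontal axis) of list members above background, by gene list (vertical axis), in the deposited values. Filled points were called for the trend, diamonds had ordered means and black bars are list medians. The medians of the elastic fibre, collagen and serine synthesis lists lie right of 0 and that of the lysosomal list left of 0 under each scaling, while the small positive median of the PPAR list (0.03) turned to -0.01 after quantile normalization and that of the mitosis list (0.02) turned negative after centring.

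Most differences among the groups did not follow the dose in order. The F test called 840 genes (3.80%), and 766 of them (91.2%) had means out of order. The 74 ordered ones made up 8.8% of these calls, near the 7.9% of all genes with ordered means. Without control replicate 2 the test called 507 genes and without T100 replicate 1 it called 551. Of the 840, 455 were not called for the trend. In the deposited values T10 was the lowest group in 445 (53%, against 32.1% of all genes) and the highest in 60 (7.14%). After quantile normalization T10 was lowest in 19.8% and highest in 19.4% of 850 calls, and after centring lowest in 9.07% and highest in 55.7% of 1929, where centring by construction lifts every dim gene on the T10 arrays. T50 was highest in 30.8% of the deposited calls (1.17% of all genes), 31.6% after quantile normalization and 13.5% after centring. T100 was highest in 335 (39.9%, or 1.52% of all genes), and in 24.9% and 17.8% under the same 2 scalings. Among the called genes of the deposited values the 3 T10 arrays lay below all 9 others in 196 and above in 31, the T50 arrays below in 60 and above in 155, and the T100 arrays below in 43 and above in 201. Over all genes these shares were 2.83% and 0.774% for T10, 0.815% and 1.61% for T50, and 0.883% and 2.54% for T100. A pattern in which T10 and T100 shared a side against control and T50 held in 210 of the 840 (25%), against 27.9% of all genes.

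**Figure D3:**
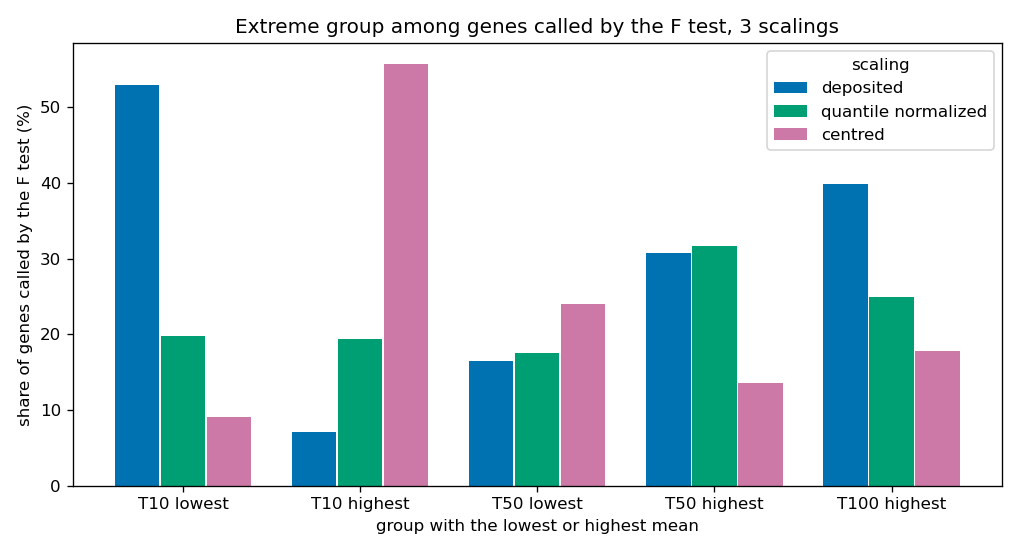
Share of the genes called by the F test (vertical axis, percent) in which the named group had the lowest or highest mean (horizontal axis), under 3 scalings. T10 as the lowest group covers 53% of calls in the deposited values, 19.8% after quantile normalization and 9.07% after centring, so that this share depends on the scaling, and T50 as the highest group covers 30.8%, 31.6% and 13.5%.

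Curvature was tested directly. The quadratic contrast (control and T100 against T10 and T50) was called for 219 genes (0.991%), 165 with the outer groups higher (0.747% of all genes) and 54 with them lower (0.244%), and the cubic contrast for 291 (1.32%), 48 positive (0.217%) and 243 negative (1.10%). The directions turned with the scaling: the quadratic calls had the outer groups higher in 97 and lower in 209 after quantile normalization, and in 130 and 270 after centring. The cubic calls were 77 positive and 147 negative after quantile normalization, and 307 and 131 after centring. Without 1 array the totals in the deposited values became 98 to 248 and 131 to 268. Acta2, the actin of smooth muscle and activated stellate cells, had 11.30, 10.91 and 10.93 in control, 8.51, 9.02 and 8.98 in T10, 9.57, 10.39 and 10.88 in T50, and 12.78, 13.06 and 13.42 in T100. It was lowest at T10 without overlap, below all control arrays at T50 (means 10.28 and 11.05) and high at T100 (quadratic adjusted p = 0.00123). Its positive slope (0.76 ± 0.10, adjusted p = 0.00735) hid an initial fall of 2.21 on the log2 scale. Ptgs2, cyclooxygenase 2, had 12.78, 12.55 and 12.80 in control, 9.18, 9.60 and 9.91 in T10, 12.55, 12.82 and 12.54 in T50, and 12.16, 12.16 and 12.29 in T100. It was far below the other groups at T10 (T10 minus control -3.15, adjusted p = 2.1e-05) and was not called for the linear trend over dose steps (slope 0.16, adjusted p = 0.176), though it was with weights from the dose in µM (0.34 and 0.00790). Fgf19, a growth factor of the bile acid axis, had 8.03, 8.56 and 9.17 in control, 5.02, 5.02 and 4.72 in T10, 6.88, 7.20 and 7.91 in T50, and 5.67, 5.49 and 5.16 in T100. T50 lay above both other doses, and all 3 steps were called (adjusted p = 0.00111, 0.00509 and 0.0221).

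Some genes peaked at T10. Slc7a8, the neutral amino acid transporter LAT2, had 5.56, 5.47 and 5.52 in control, 8.20, 8.32 and 8.05 in T10, 5.27, 5.25 and 5.17 in T50, and 6.17, 5.91 and 6.57 in T100. The T10 arrays stood more than 1 log2 unit above all others, and all 3 steps were called (2.68, -2.96 and 0.98) while the linear slope over dose steps was -0.09 (adjusted p = 0.408). With weights from the dose in µM the slope was -0.22 and was called (adjusted p = 0.0226). Ptprz1, a receptor phosphatase, had 3.86, 4.04 and 3.98 in control, 6.36, 6.52 and 6.42 in T10, 4.52, 4.54 and 4.40 in T50, and 4.47, 4.47 and 4.61 in T100, and was above background at T10 only (T10 minus control 2.47, adjusted p = 1.44e-07). Vsnl1, a neuronal calcium sensor, had means of 7.95, 9.60, 6.94 and 8.38. Tff1, a secreted trefoil peptide, had 7.71, 9.74, 6.17 and 6.78.

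Others were set apart at T50. Cldn1, a tight-junction claudin, had 5.64, 5.37 and 5.53 in control, 5.04, 5.05 and 5.04 in T10, 7.84, 7.17 and 7.47 in T50, and 4.64, 4.30 and 4.27 in T100. It was high at T50 alone, with both steps around T50 called (2.45 and -3.09, adjusted p = 0.000169 and 7.49e-05). Fbln2, an elastic fibre glycoprotein, had 13.36, 13.36 and 13.36 in control, 11.46, 12.27 and 11.81 in T10, 14.25, 14.56 and 14.19 in T50, and 13.33, 12.92 and 13.49 in T100. Its control values were identical, as happens among bright rows of this table, and T10 was lowest and T50 highest without overlap (F test adjusted p = 0.00146). Ano1, a calcium-gated chloride channel, was above background at T50 only (4.61, 4.47, 6.14 and 4.21). Tex101, a germ-cell surface protein, had 9.82, 10.23 and 9.84 in control, 6.23, 6.53 and 6.01 in T10, 5.40, 5.52 and 5.70 in T50, and 8.12, 7.99 and 7.81 in T100. It fell at the first and second steps and rose at the third (-3.71, -0.72 and 2.44, all called), so its called slope of -0.67 (adjusted p = 0.000468) describes a U shape.

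**Figure D4:**
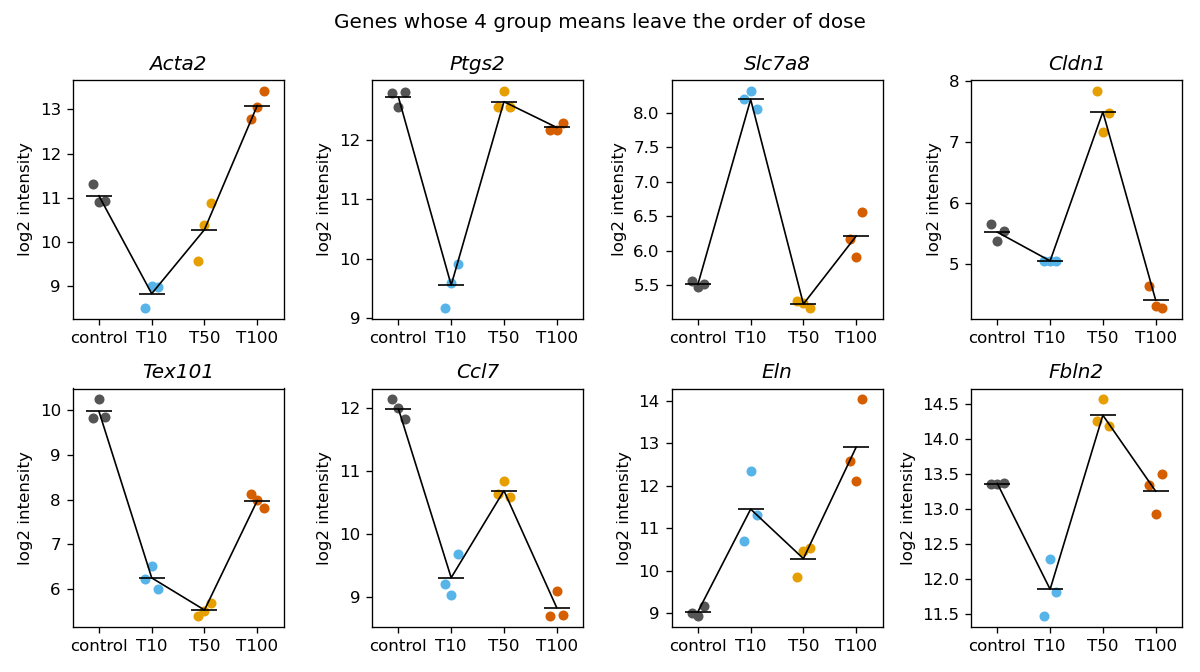
Log2 intensity (vertical axis) of 8 genes with means out of order in control, T10, T50 and T100 (horizontal axis). Points are the 3 arrays of a group and bars joined by a line are group means. Ptgs2 was low and Slc7a8 high at T10 alone, Cldn1 was high at T50 alone, and Eln and Ccl7 alternated around a slope.

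Called slopes and ordered means also parted for many genes within the trend calls. Of the 264 rising genes that were not ordered, the T10 step ran against the slope in 197, the T50 step in 38 and the T100 step in 65, and that downward step was itself called in 13, 1 and 11. Over all genes such a downward step was called in 0.715%, 0.267% and 0.502%. After quantile normalization the T10 step ran against the slope in 53 of 149 such rising genes (35.6%) and after centring in 67 of 192 (34.9%), against 74.6% in the deposited values. Of the 95 falling ones in the deposited values these counts were 19, 39 and 44, with an upward step called in 1, 6 and 5, against 0.154%, 1.74% and 0.656% of all genes. IGF-binding proteins gave both directions: Igfbp4 fell at T100 after standing above control at T10 (11.35, 11.88, 11.71 and 10.56, slope -0.25, adjusted p = 0.0151), while Igfbp7 (10.20, 9.94, 10.31 and 11.17, slope 0.33, adjusted p = 0.0331) and Igfbp2 (6.23, 6.31, 6.13 and 6.91, slope 0.19, adjusted p = 0.0155) rose mainly at T100. Their calls ended in 2, 9 and 3 of the fits without 1 array, at adjusted p-values of up to 0.0516 without control replicate 3, 0.106 without control replicate 2 and 0.0550 without control replicate 1.

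T10 was the lowest group in most members of the cell division and proteasome lists in the deposited values only. The same held for 59.1% of all genes above background, against 16.5% after quantile normalization and 15.9% after centring. Of 38 G2 and mitosis genes 0 were called for the trend (1, Mki67, after quantile normalization and 0 after centring) and T10 was the lowest group in 29, but in 12 after quantile normalization and in 8 after centring. Bub1, a spindle checkpoint kinase, had 9.28, 9.21 and 9.17 in control, 8.88, 8.89 and 8.87 in T10, 9.40, 9.38 and 9.26 in T50, and 9.32, 9.12 and 9.31 in T100, with T10 below all others (F test adjusted p = 0.00740). Of 31 proteasome subunits T10 was lowest in 25, 6 and 7 under the same scalings, and 1 was called for the trend in the deposited values and 0 in each of the other ones. Of 31 DNA replication genes T10 was lowest in 18, 4 and 3. As shares of members these were 76.3%, 31.6% and 21.1% for the mitosis list, 80.6%, 19.4% and 22.6% for the proteasome list, and 58.1%, 12.9% and 9.68% for the replication list. Prim1, the primase subunit that starts DNA strands, was the ordered riser of that list, with 10.02, 9.92 and 10.06 in control, 9.97, 9.99 and 10.21 in T10, 10.27, 10.31 and 10.37 in T50, and 10.41, 10.41 and 10.37 in T100. Control and T10 overlapped, T50 and T100 lay above both, and the slope was 0.15 (adjusted p = 0.00854; 0.12 and 0.0455 after quantile normalization). Of 29 p53 targets the F test called 8 as deposited, 5 after quantile normalization and 9 after centring. Over all genes it called 840 (3.80%), 850 and 1929. Of the 8, 0 were ordered, beside 8.8% of all F-test calls, and so few calls do not set the list apart. T50 was the lowest group in 15 of the 29 (51.7%, against 19.7% of all genes). It was lowest in 18 after quantile normalization (62.1%, against 20.7%) and in 19 after centring (65.5%, against 20.9%). The targets Mdm2 (8.22, 7.78, 7.51 and 7.97) and Cdkn1a (below background) did not pass the trend or F test.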

How the data were processed

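The data are the log2 intensities per probe set that the authors deposited for 12 Affymetrix arrays. The log base was inferred from their range (2.87 to 19.93). Per the labels' protocols, 100 ng of RNA was amplified with the WT Plus kit. Background correction, probe summary and normalization are not given in the sources used here. Of 70580 probe sets, 23446 carried 1 gene symbol, 505 several and 44891 none, and 1738 were controls. The brightest row per gene by its 12-array mean was kept, leaving 22093 genes; 22077 rows matched the rat gene table by Entrez number. For 852 genes 1 value recurred on 3 or more arrays.

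limma 3.58.1 in R 4.3.3 (lmFit, eBayes, 4 group means, all 12 arrays, prior degrees of freedom 1.71) gave two-sided tests, adjusted by Benjamini-Hochberg over all genes within each contrast. Slopes are contrasts divided by 10, and errors are standard errors of the fit with n = 3 per group. Precision is limited by having 3 arrays in each group. The scripts were tested on simulated data. Alternatives included quantile normalization, centring (chosen after seeing the data), a dim-gene filter, a replicate block and single arrays left out. Members, gene lists and tests were chosen with earlier results of these data known. Named genes are the 12 steepest called, ordered risers and 12 fallers above background whose T100 arrays all lay on 1 side of control, the 5 with the largest range for T10 or T50 lowest or highest among F-test calls, list members called for the trend, and genes of interest. Single-step and end contrasts share arrays, so no overlap between them is read. Figures used Python with matplotlib.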

Additional observations from a re-analysis of the deposited data

How the results depend on the processing

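The numbers of calls for the trend, the ordered trend, the quadratic contrast, the cubic contrast and any difference stayed within 1.5 times the deposited ones with the dim-gene filter, the robust prior, the mean of all rows and repeated values left out, as did the first pair with weights from µM or log10 dose. Quantile normalization moved the ordered calls to 206, and with the filter on dim genes to 265 (quadratic 456). With a covariate for the 95th percentile of an array, the 5 counts were 109, 32, 6, 87 and 458, with 31.2% of trend calls rising; that percentile itself was higher at T100 (9.66) than in control (9.57), with 9.42 at T10. Without both arrays at the ends of that percentile, chosen after seeing the data, they were 264, 85, 86, 165 and 438. Centring gave 200 ordered, 400 quadratic, 438 cubic and 1929 F calls. Leaving out 1 array gave 167 to 482, 51 to 129, 98 to 248, 131 to 268 and 507 to 866. With the replicate block they were 412, 108, 148, 204 and 620, but the numbers do not pair the samples: the 18 same-numbered pairs correlated by -0.219 to 0.112 in their deviations, and 4 of 12 arrays correlated best with their own number. Of 101 named trend calls, 16 ended after quantile normalization, 11 after centring, 75 with the covariate and 55 without control replicate 2. Mki67, the same on all arrays to 2 decimals as deposited, had a slope of 0.18 after quantile normalization (adjusted p = 0.0170; 0.18 and 0.00805 with the filter), and Ptprz1, high at T10, had 0.10 with log10 dose weights (adjusted p = 0.0382) and -0.19 with µM weights (0.00219). The causes were not tested. Repeated values among bright genes limit what can be seen there.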

Other observations

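Other gene groups held trend calls that the ordered rule does not catch. Of 14 germ-cell genes 2 rose and 2 fell, 0 in order, against 1.65% rising and 0.566% falling over all genes. Rhox5, a homeobox gene of testis and placenta, had 6.15, 6.03 and 5.95 in control, 5.10, 5.14 and 4.93 in T10, 5.99, 6.18 and 6.26 in T50, and 6.65, 6.51 and 6.74 in T100, so T10 was lowest and T100 highest without overlap (slope 0.29, adjusted p = 0.00247). Piwil2, a piRNA-binding protein of the germ line, was below background in every group but had a slope of 0.39 (adjusted p = 0.000468), with T10 beside control and T50 beside T100. Of 16 complement genes 5 were called by the F test, against 3.80% of all genes. Of these 5, 0 were ordered, beside 8.8% of all F-test calls. With so few calls this does not set the list apart. Cd55, which shields cells from complement, peaked at T50 (8.16, 8.34, 9.13 and 8.55, slope 0.20, adjusted p = 0.0130).

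Gpc3, a heparan sulfate proteoglycan known from liver tumours, had 6.90, 6.93 and 7.24 in control, 7.34, 7.46 and 7.62 in T10, 6.81, 6.97 and 7.19 in T50, and 8.57, 8.32 and 8.40 in T100. T50 overlapped control and T100 stood above the rest (slope 0.37, adjusted p = 0.00321). Dsel, a dermatan sulfate epimerase, had means of 7.32, 6.88, 7.60 and 9.44 (slope 0.71, adjusted p = 0.00321). Rbms3, an RNA-binding protein, was below background throughout and had a slope of 0.24 (adjusted p = 9.17e-05), and Egr1, an immediate-early transcription factor, was higher at T50 and T100 than in control and T10 (6.01, 5.82, 7.03 and 6.79, slope 0.36, adjusted p = 0.0280). The call of Egr1 ended without any 1 control or T100 replicate 1 or 2 (adjusted p up to 0.0873 without control replicate 1).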
